A study of Mus musculus with 12 samples.

Results

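The crush response of dorsal root ganglia (DRG) in mice given indole-3-propionic acid, or IPA, which gut bacteria form from tryptophan, was taken from 6 of the 12 libraries of the study, chosen by their labels. In the intact group, C57BL/6 mice aged 6 to 8 weeks were gavaged with IPA in phosphate-buffered saline, 20 mg/kg a day for 10 days, and L4 to L6 DRG were collected with the nerve uninjured. In the crush group, mice of the same strain and age had the same 10 days of IPA, then a crush of the sciatic nerve and 3 more days of IPA before collection. All 6 libraries therefore came from IPA-treated mice, and the crush and the 3 added days of dosing cannot be told apart in this comparison. Each group had 3 libraries, each from the pooled ganglia of 2 mice, described in the labels as biological replicates. The labels give no sex or batch and name no sham operation. The other 6 libraries, from mice given vehicle by gavage, hold the same states (intact, and 3 days after crush) and are used only where the responses are set side by side. The labels do not make clear whether vehicle gavage went on after the crush.

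The deposited values are reads per gene times 1 factor per library (CPM-like), with no gene length divided out. They sum to 808507 to 814896 in these 6 libraries, and the source of the factor is not given in the sources used here. Levels are therefore compared between libraries and not between genes. The reads behind them came to 51482387 to 56798355 in the intact and 44808587 to 62501969 in the crush libraries, and 1 read was worth 0.0130 to 0.0182. Values for single libraries are given below in the order of replicates 1, 2 and 3. A log2 change is crush minus intact on the scale of log2(value + 0.5), ± its standard error from limma, and a gene rose or fell where the Benjamini-Hochberg adjusted p of limma was under 0.05. On that scale the change of a low gene is understated. The first principal component held 83.5% of the variance and separated the crush from the intact libraries. The second held 7.85%, with crush replicate 3 (16.4) and crush replicate 1 (-12.8) at its ends. All 18 sensory neuron markers listed passed the filter on low values (0.5 or more in 3 or more of the 6 libraries). Of 10 central glia markers, the defining oligodendrocyte genes Olig2, Mog, Mobp and Opalin did not pass it, nor did Gpr17.

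DRG hold the cell bodies of the sensory neurons whose axons run in the sciatic nerve. When such an axon is cut or crushed, the cell body is known to start a growth program: transcription factors such as Atf3 and Jun are induced, growth cone and cytoskeletal proteins are made for the regrowing axon, and transmitter, receptor and channel genes of the mature neuron are turned down. Macrophages gather around the injured cell bodies, and the satellite glia that wrap them react. In RNA from whole ganglia, fewer cells of a type and less RNA per cell cannot be told apart.

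Of 15284 genes tested, 7529 were called (49.3%): 3576 rose (23.4%) and 3953 fell (25.9%). Large changes were mostly rises: 463 genes rose (3.03% of those tested) and 76 fell (0.497%) by over 2-fold. The count of such falls depended on the scale, at 50 with a pseudocount of 1 and 165 with edgeR on the recovered reads. Above a log2 change of 3 there were 30 rises, and below -1.5 there was 1 fall. Most called changes were small, with 70.6% of them under 0.5 in either direction against a median standard error of 0.07 over all genes tested. The median change of all genes tested was -0.02. Every crush library lay above every intact one in 27.3% of the genes and below every intact one in 31.1%. The shares and the median of all genes are the background against which the lists below are read.

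**Figure D1:**
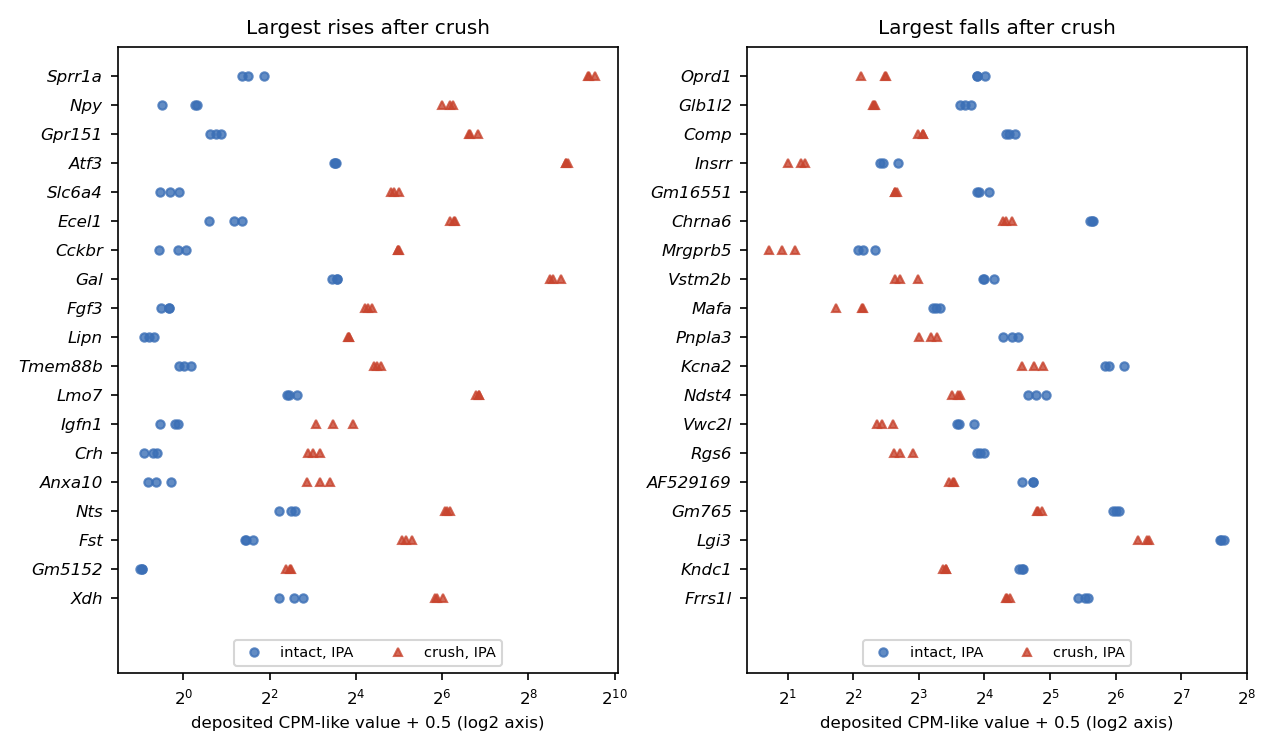
Deposited CPM-like value plus 0.5 (log2 axis) of genes among the 20 largest rises and the 20 largest falls after crush in IPA-treated mice; each circle is 1 of 3 intact and each triangle 1 of 3 crush libraries. The genes were picked to have no overlap between the groups. The rises (log2 change 3.40 to 7.87) are larger than the falls (-1.16 to -1.56).

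The largest rise was in Sprr1a, a small proline-rich protein made in injured sensory neurons (ENSMUSG00000050359, chromosome 3, 92483952 to 92485895 on mm10). It stood at 2.32, 3.16 and 2.08 in the intact and at 745, 671 and 679 in the crush libraries, a log2 change of 7.87 ± 0.11 (limma, adjusted p = 1.17e-10). The crush libraries were close to each other. Atf3, a stress-induced transcription factor of the ATF/CREB family (ENSMUSG00000026628, chromosome 1, 191170296 to 191218039), went from 11.0, 10.8 and 11.2 to 482, 466 and 466, a change of 5.36 ± 0.04 (limma, adjusted p = 6.58e-13). Npy and Gal are neuropeptide genes that intact sensory neurons express little of. Npy went from 0.709, 0.740 and 0.214 to 75.1, 62.9 and 72.4 (6.11 ± 0.19), and its intact libraries were less alike than its crush libraries on the log scale. Gal went from 10.4, 11.3 and 11.3 to 431, 378 and 360.5 (5.08 ± 0.07).

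Receptors and secreted proteins made up much of the rest of the 20 largest rises. Gpr151, an orphan receptor of sensory and habenular neurons, stood at 1.34, 1.03 and 1.18 in the intact and 97.8, 98.9 and 113 in the crush libraries (5.95 ± 0.09). Cckbr, a cholecystokinin receptor, rose from 0.536, 0.423 and 0.171 to 31.4, 31.0 and 31.1 (5.20 ± 0.14). Slc6a4, the serotonin transporter, rose from 0.425, 0.302 and 0.185 to 28.9, 27.4 and 31.5 (5.22 ± 0.11). All 3 were low before crush and were alike in the 3 crush libraries. Slc6a4 was under 0.5 in every intact library and passed the filter on low values through the crush libraries alone. Ecel1, an endopeptidase-like protein of neurons, rose by 5.21 ± 0.16. Among secreted factors Fgf3, a fibroblast growth factor, rose by 4.68 ± 0.09 and Fst, the activin-binding protein follistatin, by 3.67 ± 0.08. The peptide genes Crh and Nts rose by 3.76 ± 0.11 and 3.68 ± 0.09. Others of the 20 were Lipn, Tmem88b, Lmo7, Igfn1, Anxa10, Gm5152 and Xdh, at 3.40 to 4.63. Of these, Igfn1 varied most between crush libraries, at 14.8, 10.6 and 7.89 against 0.378, 0.181 and 0.413 in the intact ones. Igfn1 and Gm5152 also passed that filter through the crush libraries alone.

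Promoter windows are shown here because the AP-1 motif, which dimers of Jun with Fos-family and some ATF-family proteins can bind, occurs in 4 of them. In the RefSeq promoter table (GRCm38.p6; 250 bases before to 50 after a gene's start), 14 of the 20 genes with the largest rises had a window. AP-1 was searched as TGACTCA or TGAGTCA, which are each other's reverse complement, so both strands are covered. The 4 genes with a match are printed 5′ to 3′ on the gene's strand, with the match in capitals and positions counted from the first base of the window.
Sprr1a: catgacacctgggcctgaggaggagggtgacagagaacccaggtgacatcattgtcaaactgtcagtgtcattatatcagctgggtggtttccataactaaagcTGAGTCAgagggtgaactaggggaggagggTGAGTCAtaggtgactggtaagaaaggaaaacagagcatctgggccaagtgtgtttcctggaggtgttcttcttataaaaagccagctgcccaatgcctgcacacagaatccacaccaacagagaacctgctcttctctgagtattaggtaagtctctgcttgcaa
Lipn: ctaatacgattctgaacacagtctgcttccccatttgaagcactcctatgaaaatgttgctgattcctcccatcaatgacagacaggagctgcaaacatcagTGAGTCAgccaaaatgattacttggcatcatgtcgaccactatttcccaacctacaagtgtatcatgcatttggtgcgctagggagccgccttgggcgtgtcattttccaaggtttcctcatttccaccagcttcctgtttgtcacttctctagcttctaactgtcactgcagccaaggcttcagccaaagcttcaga
Anxa10: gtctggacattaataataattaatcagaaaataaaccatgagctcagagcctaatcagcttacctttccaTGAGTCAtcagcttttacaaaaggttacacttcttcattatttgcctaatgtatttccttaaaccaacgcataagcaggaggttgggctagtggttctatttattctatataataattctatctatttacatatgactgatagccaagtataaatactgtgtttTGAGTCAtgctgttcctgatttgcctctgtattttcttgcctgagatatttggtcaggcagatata
Nts: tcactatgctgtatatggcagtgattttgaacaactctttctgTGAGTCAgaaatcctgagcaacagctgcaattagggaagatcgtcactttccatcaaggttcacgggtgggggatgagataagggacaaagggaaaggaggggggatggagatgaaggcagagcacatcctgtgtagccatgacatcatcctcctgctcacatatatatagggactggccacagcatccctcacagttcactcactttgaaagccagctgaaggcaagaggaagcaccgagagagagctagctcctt
The Sprr1a window (chr3:92485832-92486131, minus strand) holds the motif at 105 to 111 and at 135 to 141. The Anxa10 window (chr8:62123144-62123443, minus strand) holds it at 71 to 77 and at 235 to 241. The window of Lipn (chr19:34067108-34067407, plus strand) has it at 103 to 109 and that of Nts (chr10:102490369-102490668, minus strand) at 44 to 50. For comparison, 5.2% of all 32851 windows of the table, 3.91% of the windows of tested genes, 8.01% of those of genes that rose over 2-fold and 4.69% of those of genes that fell over 2-fold held an AP-1 match. None of the 11 windows found for the 20 largest falls did. The CRE motif TGACGTCA and the STAT motif TTCNNNGAA were in none of the 15 windows of the largest rises, against 1.79% and 8.3% of all windows. The STAT motif was in 10.7% of the windows of genes that rose over 2-fold and in 6.86% of those of tested genes, and CRE in 1.46% and 2.89%. A match is a description of letters in this window and not of a bound site.

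Some genes were close to silent before crush. In 37 of the genes called by limma every intact library was under 0.1 and the mean of the crush libraries was at least 0.5. Ucn, the precursor of the corticotropin-releasing peptide urocortin, went from 0.0788, 0.0755 and 0.0712 to 4.55, 4.14 and 3.18 (2.94 ± 0.13), and Grp, the gastrin-releasing peptide gene, from 0.0315, 0.0755 and 0.0142 to 3.19, 3.34 and 2.75 (2.73 ± 0.11). The gap between the groups is set by the way these genes were picked, and they passed the filter on low values through the crush libraries alone. Cd207, which codes for the Langerhans cell lectin langerin, went from 0.0630, 0.0755 and 0.0285 to 3.01, 3.03 and 3.20 and Cyp24a1, which breaks down active vitamin D, from 0.0473, 0.0604 and 0.0142 to 2.36, 1.71 and 2.20. Ankrd1, a stretch- and stress-induced ankyrin repeat protein, and Phox2a, a homeobox factor of autonomic neurons, were also among the 37, at 1.90 ± 0.10 and 1.96 ± 0.16.

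The largest fall was in Oprd1, the delta opioid receptor gene (ENSMUSG00000050511, chromosome 4, 132110726 to 132144486), which stood at 14.3, 14.3 and 15.6 in the intact and 5.15, 5.10 and 3.82 in the crush libraries (-1.56 ± 0.11; limma, adjusted p = 2.42e-06). Chrna6, a nicotinic receptor subunit, went from 49.9, 49.5 and 48.4 to 19.6, 18.9 and 20.999 (-1.29 ± 0.05), and Kcna2, a voltage-gated potassium channel subunit of large axons, from 59.4, 56.9 and 69.1 to 29.1, 26.4 and 23.3 (-1.22 ± 0.09). That the groups do not overlap was a condition for these genes to be picked. Insrr, a receptor tyrosine kinase related to the insulin receptor, fell by 1.35 ± 0.11 on the log2 scale, Comp, a cartilage matrix protein, by 1.36 ± 0.06, and Mafa, a transcription factor of mechanoreceptor neurons, by 1.26 ± 0.11. Mrgprb5, a Mas-related receptor, and Lgi3, a secreted leucine-rich repeat protein, were also among the 20.

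Genes were next read by role, in lists whose members were chosen with earlier results of these data known. The transcription factors of the injury response came first: of 33 tested, 24 rose and 2 fell, with a median of 0.38. Klf6, a zinc finger factor tied to axon growth, went from 55.7, 55.0 and 54.7 to 126, 122 and 136 (1.21 ± 0.04), and Jun from 108, 110.0 and 99.0 to 313, 286 and 251 (1.41 ± 0.07). Sox11, a growth-linked SOX factor, went from 2.69, 3.31 and 3.39 to 25.5, 24.95 and 18.7 (2.69 ± 0.13). In all 3 the groups were well apart. Csrnp1 and Nfil3 rose by 1.84 ± 0.07 and 1.84 ± 0.08, and Smad1, the intracellular mediator of BMP signals, by 1.10 ± 0.05. The 2 that fell were Egr1, an immediate early factor, at -0.55 ± 0.13, and Atf2, a CREB-family partner of Jun, at -0.17 ± 0.04. Without crush replicate 1, 4 fell.

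In the list of growth cone and cytoskeleton genes 28 of 33 rose, beside 23.4% of all genes tested, with a median of 0.69. The list also holds Sprr1a, the largest rise of all. Gap43, a membrane protein of growth cones, went from 175, 181 and 173 to 609, 612 and 566 (1.75 ± 0.04). Tubb6, a beta-tubulin, went from 16.3, 18.0 and 16.5 to 142, 134 and 123 (2.94 ± 0.06), and Flrt3, a membrane protein that promotes neurite outgrowth, from 12.6, 11.8 and 12.5 to 114, 114 and 133 (3.23 ± 0.07). The stress gene Gadd45a rose by 3.20 ± 0.07. Map1b, a microtubule-associated protein, fell by 0.25 ± 0.06, the 1 fall of the list, or 1 of 2 without crush replicate 3. Intermediate filaments split by subunit. The neurofilament triplet Nefl, Nefm and Nefh, which sets axon calibre, fell by 0.38 ± 0.06, 0.48 ± 0.05 and 0.61 ± 0.05. Ina, Lmna, Vim and Gfap rose by 0.42 ± 0.05, 0.65 ± 0.07, 0.72 ± 0.04 and 1.59 ± 0.20, the last 2 being filaments of glia and mesenchymal cells.

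Neuropeptide precursor genes also split. Of 19 tested, 10 rose and 8 fell. Adcyap1, the PACAP precursor, went from 77.2, 75.8 and 78.2 to 302, 294 and 315 (1.97 ± 0.04), and Vgf, a secreted granin-like protein, from 172, 170.1 and 174 to 849.9, 813 and 732 (2.21 ± 0.05). These join Npy, Gal, Nts, Crh, Ucn and Grp, which have their values above. Among those that fell were the granins Chga, Chgb and Scg2, at -0.59 ± 0.05, -0.49 ± 0.04 and -0.45 ± 0.06, Nmb, the neuromedin B gene, at -0.52 ± 0.04, and Calcb, the gene of beta-CGRP, at -0.30 ± 0.04. Every fall in this list was under 1 on the log2 scale, while 8 of the 10 rises were above it. Ucn and Grp passed the filter on low values through the crush libraries alone, so they could enter this count only as rises.

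On the receptor side the direction was mostly down. Of 30 genes in the list of peptide, opioid and amine receptors, 18 fell and 7 rose, with a median of -0.58. The list also holds the serotonin transporter Slc6a4, which is among those that rose. The serotonin-gated channel subunits went down together: Htr3a from 142, 144 and 149 to 66.2, 66.2 and 80.9 (-1.03 ± 0.07) and Htr3b from 18.2, 16.7 and 19.7 to 8.49, 7.98 and 8.89 (-1.06 ± 0.07). Htr1d, a serotonin receptor coupled to inhibitory G proteins, fell by 0.71 ± 0.05, and Oprl1, the nociceptin receptor, by 1.15 ± 0.08. Besides Gpr151, Cckbr and Slc6a4, the receptors of neuropeptide Y Npy1r and Npy2r rose, by 0.66 ± 0.05 and 0.67 ± 0.07.

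**Figure D2:**
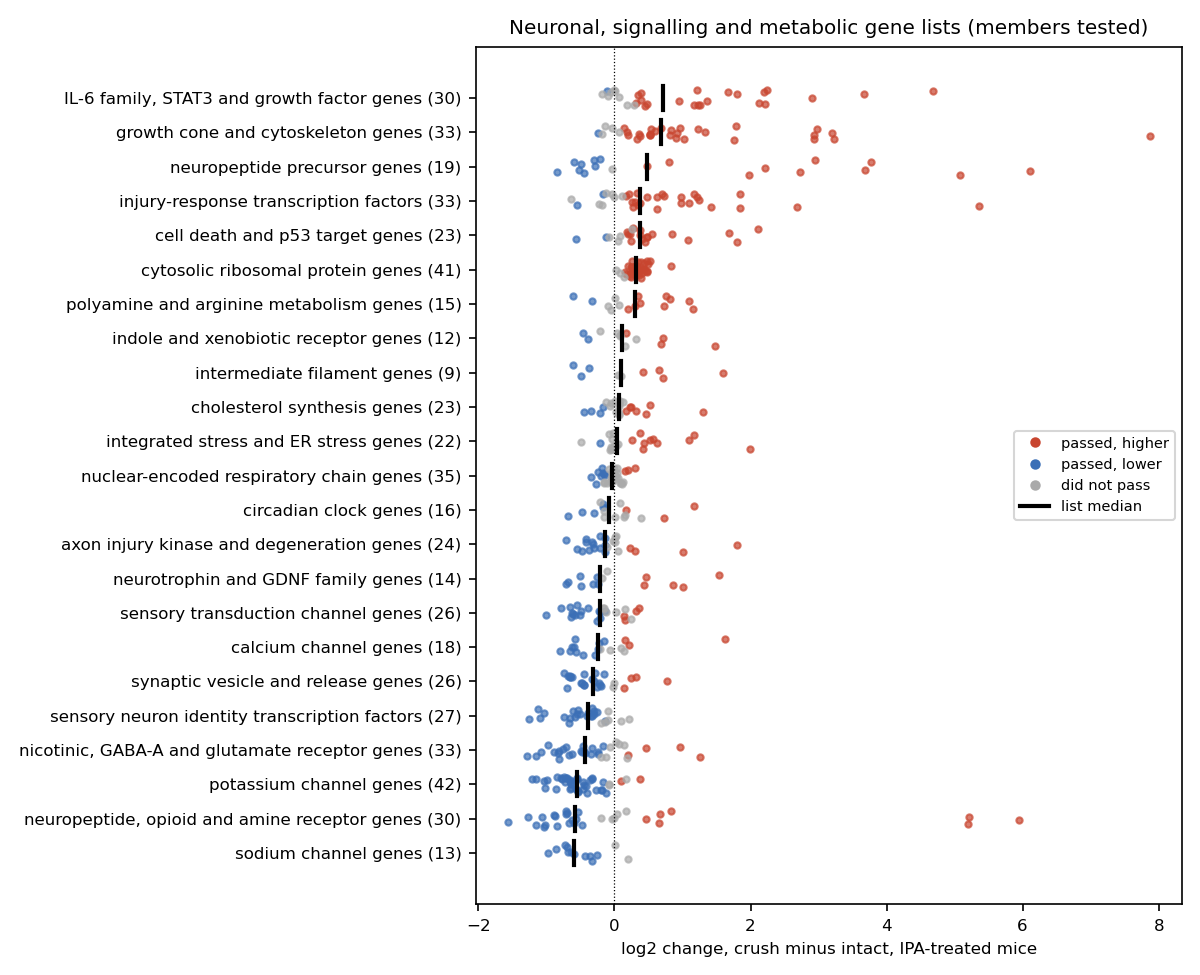
Log2 change after crush in IPA-treated mice (x axis) for every tested member of the neuronal, signalling and metabolic lists (number tested in brackets); red points passed the limma test higher, blue lower, grey did not pass, and the bar is the list median. Growth cone genes have a median of 0.69 and potassium channel genes of -0.55.

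In the sodium and potassium channel families nearly every member fell, against 25.9% of all genes tested. No sodium channel gene rose and 11 of 13 fell, with a median of -0.60. Scn10a and Scn11a, the channels of nociceptors, went from 873, 826 and 812 to 563, 560.0 and 535 (-0.60 ± 0.04) and from 463, 442 and 417 to 273, 273 and 272 (-0.69 ± 0.04). Scn1a and Scn8a, the channels of large myelinated neurons, fell by 0.98 ± 0.05 and 0.73 ± 0.05, and the auxiliary subunit Scn4b by 0.86 ± 0.04. Of 42 potassium channel genes, 37 fell (median -0.55). These included the A-type subunits Kcnd1 and Kcnd3 (-0.54 ± 0.03 and -0.56 ± 0.04), their partner Kcnip1 (-0.99 ± 0.06), the leak channel Kcnk1 (-0.84 ± 0.05) and the sodium-activated channel Kcnt1 (-0.65 ± 0.04). Kcnq3, a subunit of the M current, passed higher at 0.38 ± 0.08, and lost its call with all 12 libraries in the model.

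Calcium channel genes fell in 11 of 18 cases, with Cacng2 at -0.81 ± 0.05 and Cacna1i, a T-type channel, at -0.63 ± 0.08. Cacna2d1, the auxiliary subunit bound by gabapentin, went the other way, from 183, 169 and 176 to 542, 548 and 537 (1.62 ± 0.04), while its relative Cacna2d2 fell by 0.65 ± 0.05. Of 26 transduction channel genes, 16 fell. Trpm8, the cold and menthol channel, went from 31.6, 30.3 and 32.8 to 16.5, 14.6 and 15.5 (-1.0005 ± 0.06), and the acid-sensing channels Asic1 and Asic3 fell by 0.79 ± 0.04 and 0.65 ± 0.06. P2rx3, an ATP-gated channel of nociceptors, and Trpv2 rose slightly, by 0.32 ± 0.04 and 0.36 ± 0.04. Among nicotinic, GABA-A and glutamate receptor genes 22 of 33 fell, the AMPA receptor subunits Gria2 and Gria4 by 0.97 ± 0.07 and 0.76 ± 0.05. Within the GABA-A family, Gabra5 went from 5.53, 5.37 and 5.74 to 13.8, 13.6 and 14.5 (1.26 ± 0.06), and Gabrg1 rose by 0.96 ± 0.09.

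Transcription factors that mark classes of sensory neurons fell in 21 of 27 cases, and none rose (median -0.39). Etv1, a factor of proprioceptive and mechanosensory neurons, went from 75.4, 71.0 and 83.2 to 35.4, 37.0 and 34.0 (-1.10 ± 0.06), and Esrrg, an orphan nuclear receptor, from 32.2, 31.3 and 35.4 to 14.9, 14.8 and 15.1 (-1.12 ± 0.06). Pou4f3 and Ldb2 fell by 0.74 ± 0.05 and 0.55 ± 0.04. Synaptic vesicle and release genes fell in 20 of 26 cases. Snap25, a SNARE protein, fell by 0.63 ± 0.05, Vamp1 by 0.66 ± 0.04 and Syt2, a fast calcium sensor, by 0.66 ± 0.04, whereas Syt4 rose by 0.77 ± 0.05. Of the 18 sensory neuron markers 11 fell and 5 rose, and their summed level was 16177, 16257 and 16062 in the intact and 16620.0, 16213 and 15384 in the crush libraries, which overlap. Tubb3 and Uchl1 were among those that rose, at 0.53 ± 0.05 and 0.28 ± 0.06.

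Trophic signalling was mixed. Of 14 genes of the neurotrophin and GDNF families, 5 rose and 7 fell. Among receptors, Gfra1, which binds GDNF, went from 127, 127 and 132 to 369.6, 377 and 377 (1.54 ± 0.03) and Gfra3, which binds artemin, rose by 0.87 ± 0.04. Gfra2, which binds neurturin, fell by 0.68 ± 0.05 and the neurotrophin receptor Ntrk2 by 0.26 ± 0.04. Among ligands, Bdnf rose by 1.00 ± 0.06 and Ntf3 fell by 0.71 ± 0.12. In the list of IL-6 family, STAT3 and growth factor genes 21 of 30 rose (median 0.71). Csf1, the macrophage growth factor that injured sensory neurons are known to release, went from 16.7, 18.4 and 15.7 to 133, 122 and 133 (2.90 ± 0.06), with every crush library above every intact one. Inhbb, an activin subunit, rose by 2.19 ± 0.05 beside the activin-binding protein Fst. Of the axon injury kinases and degeneration genes 14 of 24 fell, among them Map3k12 and Map3k13 (the kinases DLK and LZK) at -0.38 ± 0.04 and -0.56 ± 0.07. Socs3, the feedback inhibitor of STAT3, rose by 1.81 ± 0.06 and Sarm1, an axon degeneration enzyme, by 0.22 ± 0.05.

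Metabolic and stress genes are described next. In polyamine and arginine metabolism 9 of 15 genes rose: Odc1, which makes putrescine, by 1.15 ± 0.05, Arg2, an arginase, by 1.09 ± 0.09, and Azin1 by 0.75 ± 0.05, while Ass1 fell by 0.61 ± 0.04. Of 22 stress genes 10 rose, with Chac1, a glutathione-degrading target of Atf4, from 4.11, 4.73 and 4.61 to 20.8, 20.3 and 17.2 (2.00 ± 0.09) and Atf4 itself by 0.63 ± 0.04. The list's median was 0.03, close to that of all genes. Cell death and p53 target genes rose in 17 of 23 cases, among them Cdkn1a (1.80 ± 0.05) and Tnfrsf12a, the TWEAK receptor (2.11 ± 0.12), and Bcl2, an anti-apoptotic gene, fell by 0.57 ± 0.05. Cytosolic ribosomal protein genes rose in 38 of 41 cases by little each (median 0.32, and 0.23 after removing, per library, the trend on the GC content and the length of transcripts).

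Nuclear-encoded respiratory chain genes barely moved: 3 rose and 8 fell of 35, with a median of -0.03. With the GC and length trend removed none rose and 19 fell (median -0.13), and the slope of a library on GC content was 0.056, 0.024 and -0.048 in the crush and -0.017, 0.012 and -0.027 in the intact libraries. Without crush replicate 3, 7 rose. Uqcrc2, a complex III subunit, and Sdha, a complex II subunit, fell by 0.24 ± 0.04 and 0.27 ± 0.05. Cholesterol synthesis genes went both ways (7 higher and 4 lower of 23), with Hsd17b7 at 1.30 ± 0.04 and Dhcr7 at -0.35 ± 0.04, and 2 lower without intact replicate 1 or 2. Of 16 clock genes 3 rose and 5 fell: Bhlhe41, a repressor, rose by 1.17 ± 0.04, and Arntl and Npas2, of the activating arm, fell by 0.68 ± 0.11 and 0.48 ± 0.10. Without intact replicate 3, 3 clock genes fell.

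Genes of the receptors that indoles can bind were read because the mice were dosed with one. Ahr, the aryl hydrocarbon receptor, stood at 13.2, 12.9 and 13.6 in the intact and 21.1, 21.8 and 23.1 in the crush libraries (0.71 ± 0.06). Its target Cyp1b1 went from 31.2, 34.2 and 30.0 to 88.0, 91.8 and 89.4 (1.48 ± 0.05), and Ahrr, its repressor and also a target, from 2.43, 2.63 and 2.29 to 1.54, 1.49 and 1.87 (-0.47 ± 0.10). Ahr and Cyp1b1 were thus higher and Ahrr lower after crush. Under vehicle Ahr also rose, by 0.58 ± 0.06, and Ahrr changed by -0.49 ± 0.12. Neither Cyp1b1 nor any other tested gene passed the limma test of the difference between the IPA and vehicle responses, described below. The median of the tested genes of this list was 0.117 under IPA and 0.123 under vehicle. Nr1i2, the pregnane X receptor that IPA is known to activate in gut, did not pass the filter, at 0.0945, 0.0906 and 0.0427 in the intact and 0.130, 0.0283 and 0.0727 in the crush libraries. Both groups of Nr1i2 were thus under 0.2 in every library. Cyp1a1 did not pass the filter either. Of the list's 12 tested genes 4 rose and 2 fell, beside 23.4% and 25.9% of all genes.

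Genes of non-neuronal cells came next. Macrophage markers rose in 26 of 32 cases, with a median of 1.18 against -0.02 over all genes. Their summed level was 211, 222 and 173 in the intact and 419, 426 and 510.2 in the crush libraries, with no overlap. Cx3cr1, the fractalkine receptor, went from 3.88, 3.86 and 3.27 to 9.74, 11.1 and 11.9 (1.45 ± 0.10), Mrc1, the mannose receptor, from 6.43, 6.51 and 5.30 to 20.6, 21.2 and 27.1 (1.83 ± 0.11) and Cd68, a lysosomal marker, from 1.69, 2.14 and 1.59 to 5.08, 5.31 and 6.35 (1.40 ± 0.12). In each the groups were apart. Lgals3 and Trem2 rose by 1.97 ± 0.06 and 1.49 ± 0.12. Complement genes rose in 13 of 19 cases, with C1qa, C1qb and C1qc at 1.65 ± 0.14, 1.53 ± 0.19 and 1.64 ± 0.15. The 1 fall of the list was Cd55, which breaks up the complement convertases, by 0.80 ± 0.04. The summed level of the 20 complement genes listed overlapped between the groups, at 659, 695 and 615 in the intact and 661, 715 and 773 in the crush libraries. These C1q genes are also macrophage markers.

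Chemokine and chemokine receptor genes rose in 14 of 20 cases. The monocyte attractants Ccl7 and Ccl8 rose by 1.35 ± 0.16 and 2.00 ± 0.23, Ccl9 by 1.31 ± 0.12 and the receptor Ccr1 by 1.51 ± 0.14, and Cx3cl1, the fractalkine that binds Cx3cr1, fell by 0.38 ± 0.07. The neutrophil attractants Cxcl1 and Cxcl2 did not pass the filter. Cxcl1 was at 0.0630, 0.0755 and 0.0996 in the intact and 0.143, 0.227 and 0.182 in the crush libraries, and Cxcl2 at 0.0158, 0.0151 and 0 in the intact and 0.0652, 0 and 0 in the crush libraries.

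Of 17 neutrophil markers 10 passed higher. Ly6g, a surface protein of mature neutrophils, went from 0.173, 0.211 and 0.114 to 1.63, 1.26 and 2.04 (1.67 ± 0.14; limma, adjusted p = 1.01e-05). Its level was low, and it passed the filter on low values through the crush libraries alone. Every crush library lay above every intact one, as in 27.3% of all genes tested. The granule proteins S100a8 and S100a9 varied far more, S100a8 from 2.66, 5.56 and 4.71 to 9.13, 6.04 and 26.9 and S100a9 from 4.98, 9.35 and 7.37 to 15.9, 9.27 and 37.2. Crush replicate 3 was the highest in both, the groups of S100a9 overlapped, and both genes lost their call without intact replicate 1 or 3. The count of neutrophil markers that rose was 1 without intact replicate 1, 2 without intact replicate 3 and 3 with no filter on low values, and the list's median of 0.79 was 0.42 without crush replicate 3.

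Interferon response genes rose in 15 of 35 cases (median 0.33). Trim30a, Mx2 and Ifi44 were at 1.30 ± 0.18, 1.16 ± 0.15 and 1.12 ± 0.19. Irf7, the factor that amplifies the response, went from 6.70, 6.70 and 4.18 to 9.86, 10.9 and 13.3 (0.92 ± 0.17). Its intact replicate 3 was the lowest and its crush replicate 3 the highest. The summed level of the list was 531, 602 and 444 in the intact and 562, 614 and 749.8 in the crush libraries. With 1 library left out, 13 to 18 of them rose, and the median was 0.22 without intact replicate 3 and 0.23 without crush replicate 3. Cell cycle genes rose in 19 of 29 cases and 0 fell, or 1 without intact replicate 1. Top2a, a DNA topoisomerase of dividing cells, went from 0.835, 1.45 and 1.01 to 3.21, 3.70 and 4.55 (1.44 ± 0.16), and Prc1, a protein of the mitotic spindle midzone, rose by 2.24 ± 0.08.

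Satellite glia markers went both ways, 5 higher and 7 lower of 23 (median -0.07), beside 23.4% and 25.9% of all genes tested. There were 3 higher without intact replicate 3 and 4 lower without intact replicate 2. Gfap, a filament of reactive glia, went from 0.457, 1.16 and 0.683 to 2.61, 3.81 and 3.33 (1.59 ± 0.20), and Glul, glutamine synthetase, from 283, 311 and 304 to 503, 504 and 545 (0.79 ± 0.05). Fabp7, a fatty acid-binding protein of these glia, fell by 0.50 ± 0.07 and Aqp4, a water channel, by 0.51 ± 0.09. Genes of myelinating Schwann cells barely moved (3 higher and 1 lower of 21, median -0.02). The first count was 1 without intact replicate 1 or 3 or crush replicate 2, and the second was 4 without crush replicate 3 and 0 without intact replicate 1 or crush replicate 1 or 2. Of 14 repair Schwann cell genes 8 rose, Runx2 by 0.96 ± 0.10 and Tgfb1 by 0.95 ± 0.10, while Fgf5 fell by 0.58 ± 0.12. Several of these, such as Jun and Bdnf, are also made by injured neurons. Of 25 endothelial and pericyte markers 5 rose and 3 fell, beside 23.4% and 25.9% of all genes tested, with a median of 0.04. Vwf and Plvap rose by 0.53 ± 0.10 and 0.45 ± 0.09, and Slco1c1 and Rgs5 fell by 0.51 ± 0.10 and 0.26 ± 0.06. Without intact replicate 1 or 3, 3 of these markers rose.

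**Figure D3:**
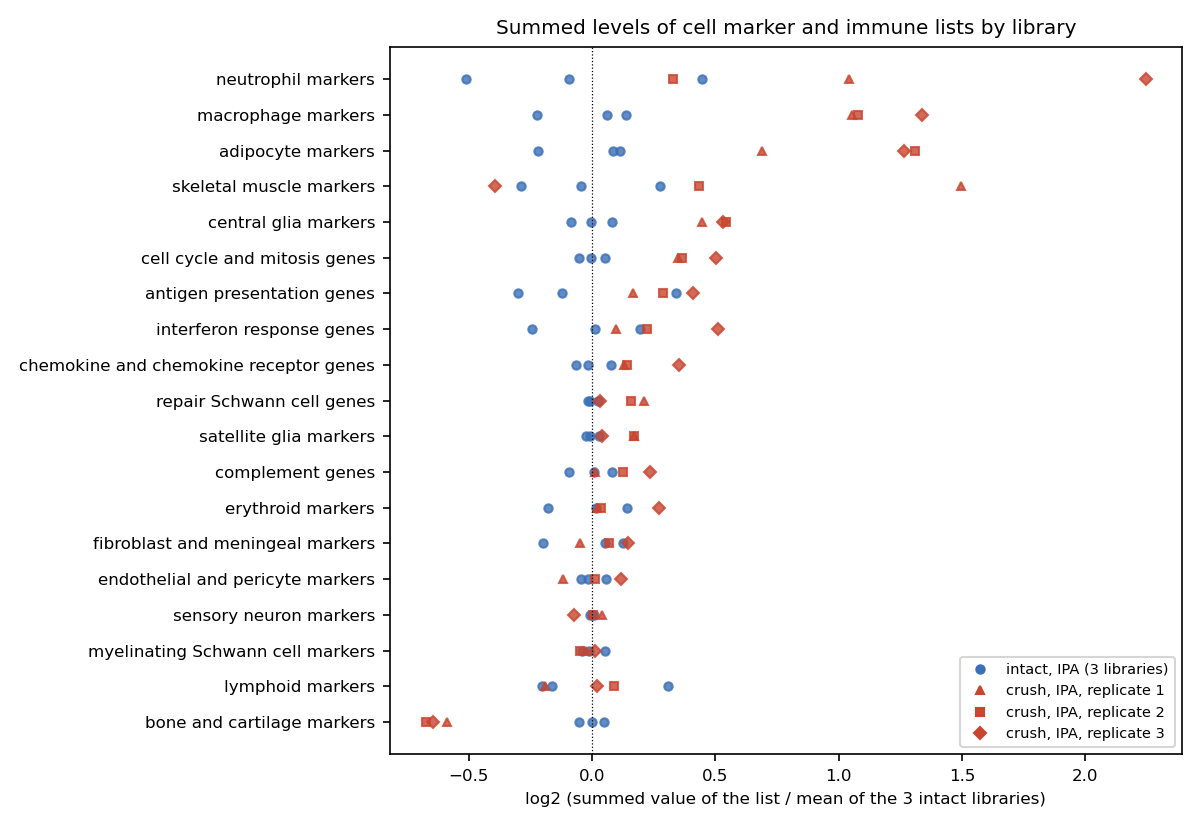
Summed level of each cell marker or immune list in every library, as the log2 ratio to the mean of the 3 intact IPA libraries (x axis); circles are intact libraries, and the triangle, square and diamond are crush replicates 1, 2 and 3. Macrophage markers are apart between the groups, whereas skeletal muscle markers span the intact range in the crush libraries.

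Markers of tissues next to the ganglia were read to see how much of them each library held. The summed level of 20 skeletal muscle markers, 18 of them tested, was 138, 204 and 163 in the intact and 474, 227 and 128 in the crush libraries. Crush replicate 1 was thus highest and crush replicate 3 lowest. The list's median was 0.92, 0.41 without crush replicate 1 and 1.45 without crush replicate 3, with 1 gene called higher (Neb) and 1 lower (Pvalb, which proprioceptive neurons also express). Without crush replicate 3, 16 were called higher, and 0 without intact replicate 1 or 3 or crush replicate 1 or 2. Of 7 bone and cartilage markers tested 4 fell, among them Comp, Chad and Acan by 1.36 ± 0.06, 0.72 ± 0.12 and 0.56 ± 0.13. In the same list 1 rose, Runx2 at 0.96. The adipocyte markers Car3 and Lipe rose by 2.06 ± 0.12 and 0.89 ± 0.09, 2 of 10 tested, or 6 without crush replicate 1. Of 22 fibroblast and meningeal markers 2 rose and 2 fell, or 8 fell without intact replicate 3. Antigen presentation genes rose in 2 of 14 cases, in 9 without intact replicate 2 and in 1 without intact replicate 1 or 3. Of 4 lymphoid markers 0 rose and 1 fell (Cd79a, at -0.59 ± 0.15), and 1 rose without crush replicate 1. Of 7 erythroid markers 1 rose, Tfrc at 0.51 ± 0.06, and 1 fell, or 5 without crush replicate 3, 4 without intact replicate 1 and 0 without intact replicate 2 or crush replicate 2. Of the 5 central glia markers that passed the filter 3 rose, Aldh1l1 and Slc1a2 by 0.99 ± 0.06 and 0.53 ± 0.09. The part of these tissues in the changes above was not tested.

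Outside protein-coding genes (3407 higher and 3717 lower of 14113), long noncoding classes had more falls than rises, but not among changes over 2-fold. Of 194 long intergenic RNAs 24 rose and 54 fell, with 5 and 2 over 2-fold. Of 182 antisense RNAs 22 rose and 39 fell, with 6 and 1 over 2-fold. Processed pseudogenes went the other way, 29 higher and 3 lower of 199. Because a processed pseudogene is a near copy of its parent gene, their reads can be swapped, and these counts are uncertain. Gm16551, a processed transcript, was the noncoding gene among the 20 largest falls, from 14.5, 14.3 and 16.3 to 5.85, 5.71 and 5.75 (-1.31 ± 0.07).

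The same contrast in vehicle-treated mice called 6297 of the 15284 genes (41.2%). The difference between the responses, IPA minus vehicle, was tested in 1 limma model of all 12 libraries, and 0 genes passed (0.0%), with a smallest adjusted p of 0.633 and 320 genes under 0.05 before adjustment. On recovered reads edgeR also called 0 and DESeq2 called 3. For 15095 genes the 95% interval of that difference lay within 2-fold in either direction and for 13519 within 1.5-fold. Each interval is for its gene alone and is not adjusted for the number of genes. The vehicle change had the same sign in 7469 of the 7529 genes called under IPA. Under vehicle Sprr1a changed by 8.17 ± 0.21, Atf3 by 5.47 ± 0.07, Gal by 5.02 ± 0.11 and Oprd1 by -1.83 ± 0.14, beside 7.87 ± 0.11, 5.36 ± 0.04, 5.08 ± 0.07 and -1.56 ± 0.11 under IPA.

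**Figure D4:**
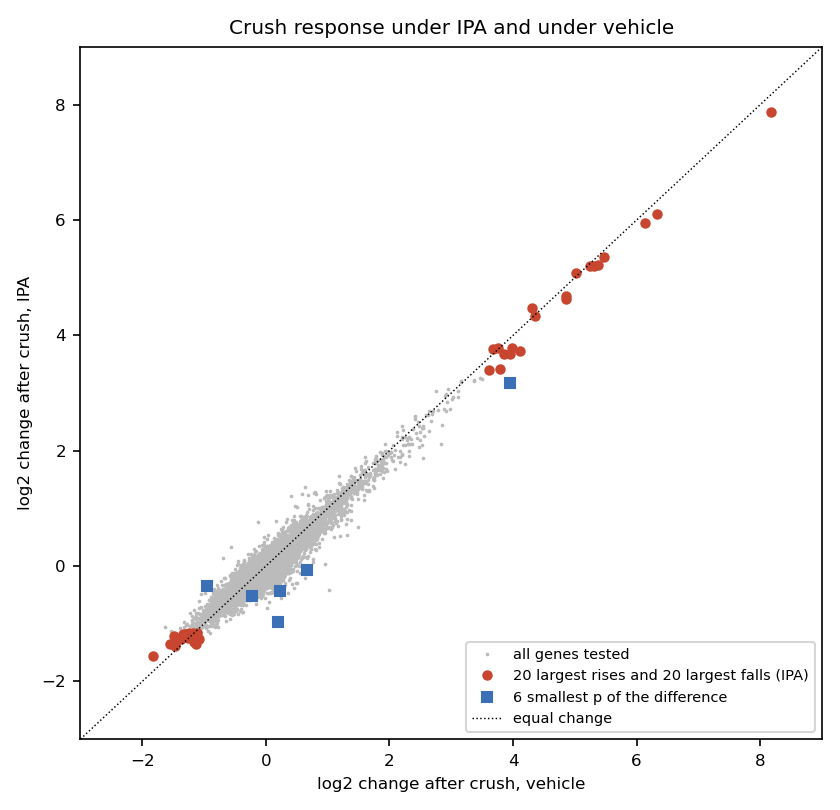
Log2 change after crush under vehicle (x axis) and under IPA (y axis) for all tested genes (grey), the 20 largest rises and falls under IPA (red) and the 6 genes with the smallest p of the difference (blue squares); the dotted line marks equal change. The red points lie near the line, and Mfap4 is the lowest of the squares at -0.97 ± 0.11 under IPA and 0.20 ± 0.16 under vehicle.

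The genes with the smallest p of that difference did not pass and are given as values. Mfap4, a protein of elastic fibres, stood at 2.19, 2.49 and 1.99 in intact and 0.874, 1.02 and 0.782 in crush libraries under IPA, and at 1.18, 1.35 and 1.65 and 1.45, 2.16 and 1.45 under vehicle. The difference was -1.17 ± 0.20, with a 95% interval of -1.59 to -0.75 (limma, adjusted p = 0.633). Under IPA every crush library was below every intact one, as in 31.1% of all genes tested, and under vehicle the groups overlapped. Mfap4 was picked for its p of the difference, so this pattern is no support for a difference. The interval is not adjusted for that choice. Fn1, fibronectin, had changes of -0.07 ± 0.11 under IPA and 0.66 ± 0.09 under vehicle. Adam8, a metalloprotease of leukocytes and injured neurons, changed by 3.17 ± 0.06 under IPA, from 8.16, 9.33 and 8.48 to 80.3, 78.3 and 87.8, and by 3.95 ± 0.14 under vehicle, a difference of -0.78 ± 0.17 (limma, adjusted p = 0.9997). The other 3 were Aldh1a2, Cidea and AK163121, at differences of -0.65 ± 0.16, 0.60 ± 0.14 and -0.29 ± 0.07. When vehicle crush replicate 1 was left out, the genes at an unadjusted p under 0.05 numbered 1681 instead of 320, and still 0 passed.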

How the data were processed

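Libraries were strand-specific, made from poly(A) RNA of an integrity number over 8, and sequenced with paired reads of 75 bases, per the labels' protocols. Tools named by the submitters' processing notes, without their roles, are FastQC 0.10.1, limma 3.38.3, edgeR 3.24.3, STAR 2.7.0 and R 3.5.0, with the build mm10; what counted the reads is not given in the sources used here. Deposited values are called FPKM by the authors but are CPM in kind: all values of a library (100.0%) were whole multiples of its step, to a tolerance of 1e-06, with 44345 genes listed. Whole reads were so recovered for 2 alternatives, edgeR 4.0.16 (quasi-likelihood) and DESeq2 1.42.0.

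The 15284 genes that reached 0.5 in 3 or more of the 6 libraries were fitted as log2(value + 0.5) with limma-trend (limma 3.58.1, R 4.3.3), two-sided, with Benjamini-Hochberg adjustment. The difference from vehicle was an interaction over 12 libraries. Gene positions are from GENCODE M21. Genes named are the 20 largest rises and the 20 largest falls (no overlap, mean of at least 1), up to 5 members per list and direction by smallest p, near-silent genes, 6 with the smallest p of the difference, and 16 set by name. The members and lists were chosen with earlier results of these data known. Some genes that the rule picks are not reported here. The 42 lists get counts and medians, no tests. Other pseudocounts, filters, scalings, a replicate block and each library left out were tried; removing the GC and length trends was added after seeing the data. Replicates differed by more than the noise of sampling reads, with a chi-square of 5.53 to 24.1 times its degrees of freedom.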

Additional observations from a re-analysis of the deposited data

How the results depend on the processing

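The count of falls over 2-fold was 76, and 138 with a pseudocount of 0.1, 50 with a pseudocount of 1, 165 with edgeR and 160 with DESeq2 on recovered reads. With 1 library left out it was 68 to 83. The counts of all rises (2967 to 3892), all falls (3207 to 4597) and rises over 2-fold (442 to 491) with 1 library left out, and these counts under the other alternatives, stayed within 1.5 times their main values. The difference from vehicle gave 0 genes under every alternative but DESeq2 on recovered reads, which called 3, and 0 with any 1 library left out. Quantile normalization gave 43.5% of all calls as rises and DESeq2 51.4%, against 47.5%. Same-numbered replicates did not deviate together (correlations -0.093, -0.029 and -0.047), and with the replicate number as a block 3501 genes rose and 3875 fell. Of 181 genes named in the report, 6 changed their call or sign under at least 1 alternative: Kcnq3, Cidea, Neb, S100a8 and S100a9 lost their call under some, and Fn1, which did not pass, was at 0.0104 with the GC and length trend removed and ranged from -0.2072 to 0.0690 with 1 library left out. The cause was not tested. No list with most of its members called in 1 direction had a median of the other sign. Depth limits the genes near 0.1, which stand on few reads per library, and 3 libraries a group limit the test of the difference.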
